A study of Mus musculus with 8 samples.

Results

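The coagulation, complement and other plasma protein genes are liver genes whose products circulate in blood. They were taken as all probes whose identifier carried the NCBI Gene ID of a gene on a fixed list of symbols, such as F5, Trf and C6, or with a symbol opening with letters such as C1q, C4, Kng, Orm or Saa. The rule found 35 probes for 28 genes among 24048 probes, of which 8884 could be given a gene name. Of these, 29 probes for 22 genes encode plasma proteins, and 6 probes for 6 genes share only the opening letters of a symbol (C1ql2, C1qtnf5, C1qtnf6, C1qtnf9, Ormdl1 and Ormdl3). The same rule covers 75 plasma protein genes in the RefSeq table, so most of the family, with Alb, Ttr, Hp, the fibrinogen chains, C3 and the Itih genes, had no matched probe and was not analysed here.

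Hepatocytes make most clotting factors, complement components and carrier proteins of plasma. Clotting is a cascade of proteases and cofactors ending in fibrin, held in check by serpins, which trap proteases. Complement is a second cascade that C1 or the mannose-binding lectins can start, that passes through C4 and C3 and that ends in a membrane pore. Acute-phase proteins such as serum amyloid A and orosomucoid are made in larger amounts during inflammation, under control of C/EBP, NF-κB and STAT3 factors.

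Livers came from 8 male mice aged 23 weeks, 4 Gpx3 transgenic and 4 of B6/DBA wildtype, with 1 array per animal. The fat content of their chow was raised from 4% to 6% at 11 weeks, in both groups. The labels do not give the promoter that drives the transgene or say whether the animals come from 1 founder line. Sample titles of all 4 wildtype animals share a stem, those of transgenic animals 1 to 3 share another, and transgenic animal 4 has its own. What the stems mean is not stated, and if they mark litters or cages, these cannot be told apart from the groups. The labels could not be checked on the transgene itself, since 0 probes matched Gpx3. Signals are background-subtracted intensities in arbitrary units, and brightness depends on the probe as well as on the RNA, so levels are not compared between genes. Array medians lay between 11 and 14.2 units. The hepatocyte marker Apoa1 read 33749 to 37065 units in transgenic and 33982 to 36689 units in wildtype livers.

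Of the 35 probes, 27 (23 genes) exceeded the floor of 16 units in at least 1 liver and were tested. The other 8 stayed below it in all 8 livers, among them 2 of the C1ra probes, both C1s2 probes, and the probes of C1ql2, C1qtnf6 and Ormdl1. Of the tested probes, 19 exceeded the floor in every liver, 18 of them for 17 plasma protein genes.

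Saa1 and Saa2, the serum amyloid A genes, varied together over the 8 animals by Pearson's r (adjusted exact permutation p = 0.0190). By Spearman's rho the relation did not pass (adjusted exact permutation p = 0.0775). The upstream sequence of Saa2 is shown with that of C1qb, a macrophage gene, for comparison. Whether upstream sequence has a part in the shared variation was not tested. Each window is the 250 bases before the start that the RefSeq promoter table uses, build GRCm38.p6, at chr7:46751583-46751832 (plus strand) for Saa2 and chr4:136886201-136886450 (minus strand) for C1qb. The Saa1 window, chr7:46742981-46743230 (minus strand), was searched and aligned but is not printed, because the RefSeq gene record of Saa1 extends further upstream than the start used, so most of that window lies inside the gene record. Capitals mark matches on either strand to TTGCNNAA, a C/EBP core, and to the kappa B decamer of NF-κB sites. The decamer was searched in a loose form that allows A or G at base 3, so a match need not be a consensus site.
Saa2: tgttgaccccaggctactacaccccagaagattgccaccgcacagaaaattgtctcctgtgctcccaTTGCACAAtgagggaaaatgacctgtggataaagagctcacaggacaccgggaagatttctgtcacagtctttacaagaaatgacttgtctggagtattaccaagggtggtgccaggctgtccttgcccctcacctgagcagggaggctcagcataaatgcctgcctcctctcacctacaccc
C1qb: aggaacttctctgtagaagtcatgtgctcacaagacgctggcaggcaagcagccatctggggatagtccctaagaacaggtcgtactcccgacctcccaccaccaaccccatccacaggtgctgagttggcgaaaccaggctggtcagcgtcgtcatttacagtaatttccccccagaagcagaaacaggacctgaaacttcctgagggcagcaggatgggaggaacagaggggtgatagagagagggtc
The Saa1 and Saa2 windows were identical at 238 of 251 aligned positions (94.8%), against 122 of 265 (46%) for Saa1 and C1qb. TTGCACAA stands 182 bases before the start in Saa1 and 183 bases before it in Saa2. The kappa B match GGAGTTTTCC stands 91 bases before the start of Saa1, and the Saa2 window holds none. Of 32851 RefSeq windows of this length, 9.56% held a TTGCNNAA match and 9.55% a kappa B match. Among the plasma protein genes 15 had a window, with 18 windows in all, and 5 of the 18 held TTGCNNAA. These belong to Saa1, Saa2, C1rl, C1s1 and Cp, and the Saa1 and Saa2 windows among them are the 94.8% identical pair. In addition 1 gene (Saa1) held the kappa B decamer, and 0 held TTCNNNGAA, the STAT core (7.02% of all windows). No match overlapped another in these 3 windows, and a match is a description of letters, not evidence that a factor binds.

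The comparison between groups asked whether the Gpx3 transgene went with a change in any of these genes, and no probe passed. Kng1, Serpinf1, Serpinf2, F5, Orm1 and C1qb had nearly equal group means. Means in transgenic livers were lower for Trf, C4b, C1qa, C1ra, C1rl and C1s1 and higher for C6 and Cp, with overlapping groups. Of the 27 tested probes 0 had an adjusted p under 0.05 in limma (Benjamini-Hochberg, over the 14759 probes tested), where 0% were called. At an unadjusted p under 0.05 there were again 0 of 27, beside 6.82% of all tested probes (3.23% higher and 3.59% lower in transgenic livers). In 9 of 27 probes 1 animal stood far from the rest of its group by Dixon's criterion, beside 31.2% of all. Groups were separate at 0 of 27 probes, beside 3.56% of all. Adjusted p-values of members lay between 0.762 and 0.999. Taking the brightest probe of each of the 20 tested plasma protein genes, 6 had a higher and 14 a lower mean log2 signal in transgenic livers, with a median log2 fold change of -0.03. The signs of F5, Kng1, Serpinf1 and Serpinf2, whose means were nearly equal, turned when array medians were aligned and with quantile and cyclic loess scaling, and that of Saa2 with quantile scaling. Over all tested probes 46.7% were higher and the median was -0.02. For 4 animals against 4, the smallest two-sided exact permutation p is 0.0286.

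**Figure D1:**
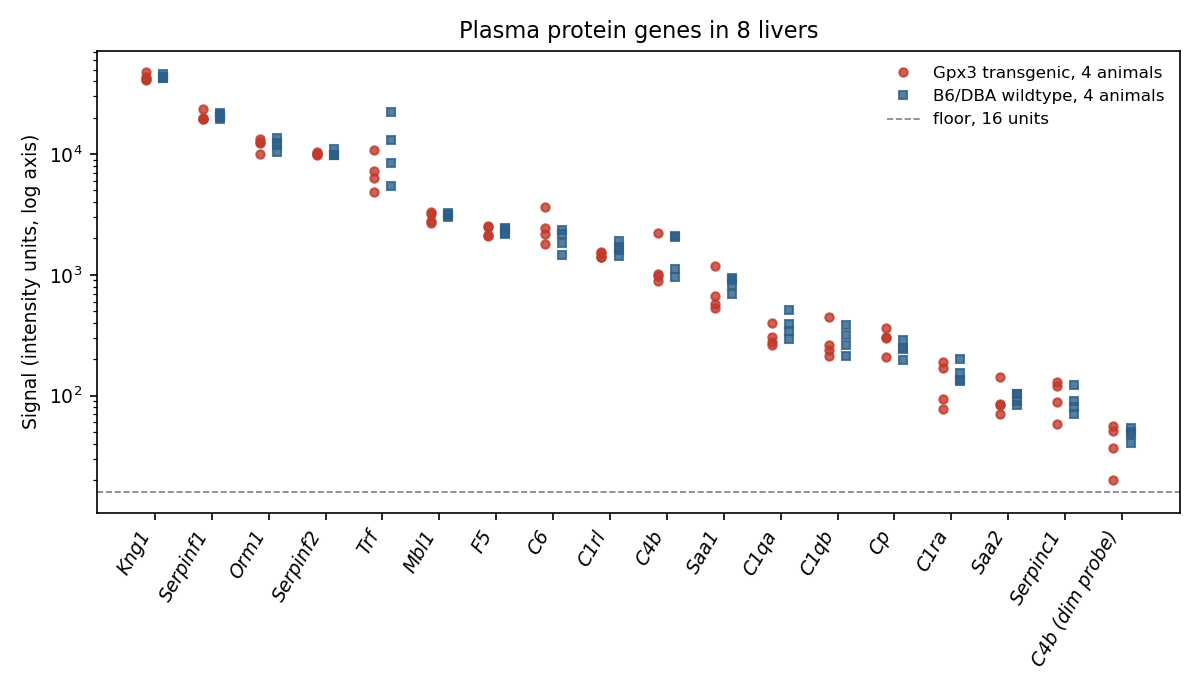
Signal in intensity units on a log axis for the 18 plasma protein probes above 16 units in all 8 livers, with 1 point per animal (red circles, transgenic; blue squares, wildtype) and the floor of 16 units as a dashed line. The groups overlap at every probe, and Trf, C4b and C6 are spread more widely than F5, Kng1 or Serpinf2.

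Clotting factors were represented by F5 and F13a1. F5 encodes factor V, the cofactor with which factor X activates prothrombin. It read 2535, 2133, 2494 and 2110 units in transgenic and 2216, 2179, 2440 and 2418 units in wildtype livers. The wildtype values lie inside the transgenic range. The fold change was 0.999, with a 95% interval of 0.863 to 1.16 (limma adjusted p = 0.998). F13a1, the catalytic chain of the fibrin-stabilising factor XIII, which macrophages and platelets make, exceeded the floor in 1 liver only, at 16.9 units.

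Among the protease inhibitors and kininogens, Kng1, Serpinf1 and Serpinf2 had narrow intervals around no difference. Kng1 encodes kininogen, the precursor of bradykinin and a cofactor of contact activation. It read 47977, 41909, 43403 and 40725 units in transgenic and 43557, 42326, 42551 and 45642 units in wildtype livers. Transgenic animals 1 and 4 bracket all the others. The means were 43504 ± 3177 and 43519 ± 1513 units (SD, n = 4 each), a fold change of 0.998 with a 95% interval of 0.886 to 1.13. Serpinf2, the plasmin inhibitor α2-antiplasmin, averaged 10098 ± 265 against 10112 ± 635 units (SD, n = 4 each), a fold change of 0.9998 with an interval of 0.895 to 1.12. Wildtype animal 4 was highest, at 11064 units, and the other 7 animals lay between 9752 and 10486. Serpinf1, the secreted pigment epithelium-derived factor, which inhibits vessel growth rather than a protease, averaged 20634 ± 2053 against 20754 ± 1000 units (SD, n = 4 each), with an interval of 0.862 to 1.14-fold. Its highest value, 23702 units, was in transgenic animal 1. Serpinc1 encodes antithrombin, the main inhibitor of thrombin, and its probe was dim. It read 58.5 to 129 units in transgenic and 70.2 to 123 units in wildtype livers, a fold change of 1.07 with an interval of 0.679 to 1.68.

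Complement components were the largest group, with 8 genes tested. Of these 7 had a lower and 1 a higher mean in transgenic livers, with a median log2 fold change of -0.23, and none passed. The median was -0.13 both without transgenic animal 4 and without wildtype animal 4. C1qa and C1qb encode chains of C1q, the recognition part of C1, which in liver comes mainly from macrophages. C1qa read 308, 397, 280 and 262 units in transgenic and 294, 346, 389 and 512 units in wildtype livers. Wildtype animal 4 was highest, and transgenic animal 2 stood above all but that one. The fold change was 0.816, with an interval of 0.594 to 1.12 (limma adjusted p = 0.809), and the log2 fold change of -0.29 was -0.15 without wildtype animal 4. C1qb read 239, 447, 265 and 213 units in transgenic and 212, 263, 316 and 384 units in wildtype livers. Here transgenic animal 2 was highest, and the fold change was 0.971 (0.629 to 1.498). In whole liver fewer cells of a type and less RNA per cell cannot be told apart. The part of macrophage number in these values was not tested.

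The proteases of C1 were measured by C1ra and C1s1. C1ra, the first protease of C1, read 94.3, 188, 170 and 77.2 units in transgenic and 132, 200, 135 and 154 units in wildtype livers. Transgenic animals 1 and 4 were lowest, and the fold change was 0.805 (0.491 to 1.32). Its log2 fold change of -0.31 was -0.09 without transgenic animal 4, -0.18 without transgenic animal 1 or wildtype animal 2, and -0.51 without transgenic animal 2. C1s1, the second protease, exceeded the floor in 6 livers at its brightest probe, with transgenic animals 2 and 3 at 4.90 and -9.50 units and transgenic animal 4 highest at 119. Its log2 fold change of -0.71 ± 0.64 (SE) rests on the floor. It was -0.33 without transgenic animal 2 or 3, -0.21 with a floor of 32 units, and -1.30 without transgenic animal 4 (unadjusted p = 0.0210, adjusted p = 0.489 in limma). C1rl, a protease related to C1r, averaged 1461 ± 74 against 1656 ± 190 units (SD, n = 4 each). It had the smallest p of the plasma protein genes, with a fold change of 0.886 and an interval of 0.758 to 1.03 (unadjusted p = 0.109, adjusted p = 0.781 in limma). The log2 fold change of -0.18 was -0.11 without wildtype animal 4 and -0.24 without wildtype animal 2 (unadjusted p = 0.0354, adjusted p = 0.751 in limma).

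Mbl1, a mannose-binding lectin that starts the lectin pathway, averaged 2993 ± 317 against 3121 ± 102 units (SD, n = 4 each), a fold change of 0.955 (0.827 to 1.10). C6, a component of the membrane pore, read 2168, 2420, 3672 and 1789 units in transgenic and 2367, 1468, 2179 and 1838 units in wildtype livers. Transgenic animal 3 stood above all the others, which were mixed between the groups. The fold change was 1.25 (0.850 to 1.85, limma adjusted p = 0.809). On the log2 scale, 0.33 with all animals, it was 0.13 without transgenic animal 3 and 0.19 without wildtype animal 2.

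C4b, whose product C4 forms the convertases of the classical and lectin pathways, read 894, 1007, 2200 and 971 units in transgenic and 2078, 2066, 1125 and 962 units in wildtype livers. The values stood at a high and a low level with none in between. Transgenic animal 3 and wildtype animals 1 and 2 lay between 2066 and 2200 units, and the other 5 animals between 894 and 1125. Both levels occur in both groups, and the fold change was 0.802 (0.439 to 1.47, limma adjusted p = 0.817). The log2 fold change of -0.32 was -0.62 without transgenic animal 3 and -0.52 without wildtype animal 4, against -0.15 without wildtype animal 1 or 2 and -0.19 without transgenic animal 1. A dimmer C4b probe did not separate the same animals, with 20.0 to 55.9 units in transgenic and 40.5 to 53.6 units in wildtype livers.

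**Figure D2:**
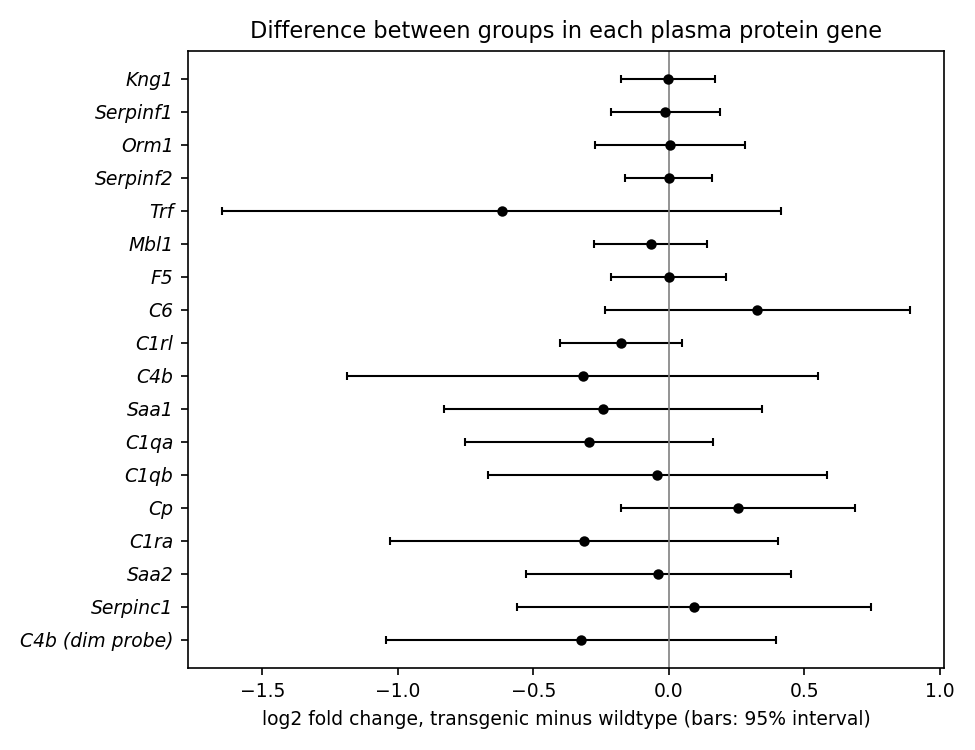
Log2 fold change of transgenic minus wildtype livers for the same 18 probes, with the 95% interval from limma as bars. All intervals include 0, and they are narrow for Kng1, Serpinf2, Serpinf1 and F5 and wide for Trf and C4b.

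Carriers of iron and copper were Trf and Cp. Trf encodes transferrin, which carries iron in plasma. It read 4809, 7218, 6297 and 10823 units in transgenic and 12970, 22156, 5404 and 8407 units in wildtype livers. Wildtype animal 2 was highest, 4.61 times the lowest animal, transgenic animal 1, and wildtype animal 3 stood among the low transgenic values. Means were 7286 ± 2558 and 12234 ± 7309 units (SD, n = 4 each), a fold change of 0.652 with an interval of 0.319 to 1.33 (limma adjusted p = 0.809, exact permutation p = 0.286). The log2 fold change ranged from -0.94 without wildtype animal 3 (unadjusted p = 0.0464, adjusted p = 0.590 in limma) to -0.27 without wildtype animal 2, against -0.62 with all. Cp, ceruloplasmin, a copper-carrying ferroxidase, read 211, 299, 306 and 364 units in transgenic and 198, 291, 245 and 246 units in wildtype livers. The groups overlap, with transgenic animal 4 highest, and the fold change was 1.19 (0.885 to 1.61). The log2 fold change of 0.26 was 0.14 without transgenic animal 4, 0.16 without wildtype animal 1 and 0.41 without transgenic animal 1 (unadjusted p = 0.0288, adjusted p = 0.645 in limma).

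**Figure D3:**
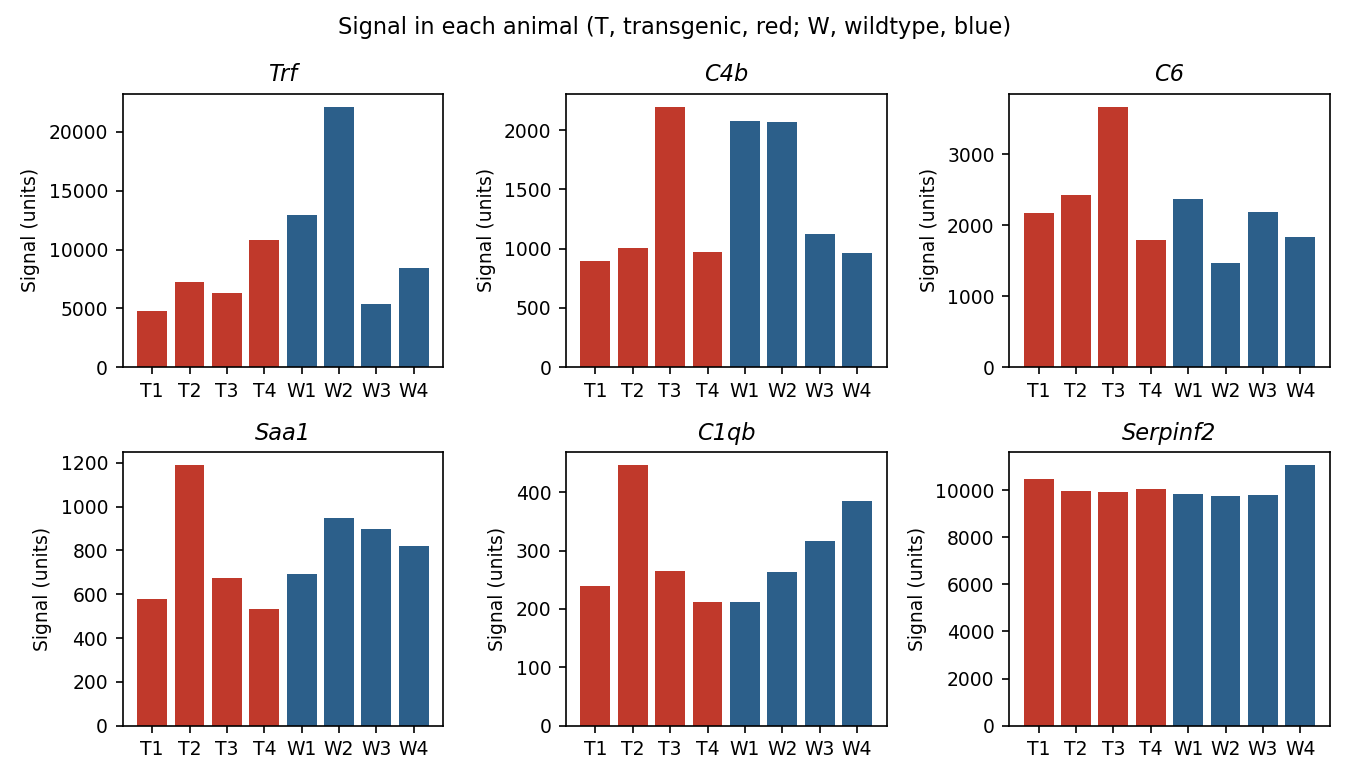
Signal in intensity units in each of the 8 animals (T, transgenic, red; W, wildtype, blue) for 6 genes. Trf, C4b and C6 vary several-fold or stand at separate levels across animals of both groups, Saa1 and C1qb are highest in transgenic animal 2, and Serpinf2 is nearly level.

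The genes also differed in how much they varied between animals, taken over both groups together. Among 1777 tested probes with a mean above 1000 units, the median SD of log2 signal over the 8 animals was 0.13. Serpinf2 (0.06) and Kng1 (0.07) stood at percentiles 4.28 and 10.9 of these probes. Kng1 read 40725 to 47977 units, where the highest signal of an array was 47379 to 59796 units. Whether its place near the top of the range narrows its spread was not tested, and the percentiles were not matched for brightness. Trf (0.73), C4b (0.58) and C6 (0.39) stood at percentiles 98.2, 97.1 and 95.3. Of the 10 plasma protein probes this bright, the other 7 had an SD under 0.2, as had 80.1% of the 1777 probes. Over those 7 genes the 95% intervals of the fold change lay within 0.758 and 1.22. A small SD over all 8 animals limits the group difference and the interval alike. This range therefore follows in part from how the 7 were picked.

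**Figure D4:**
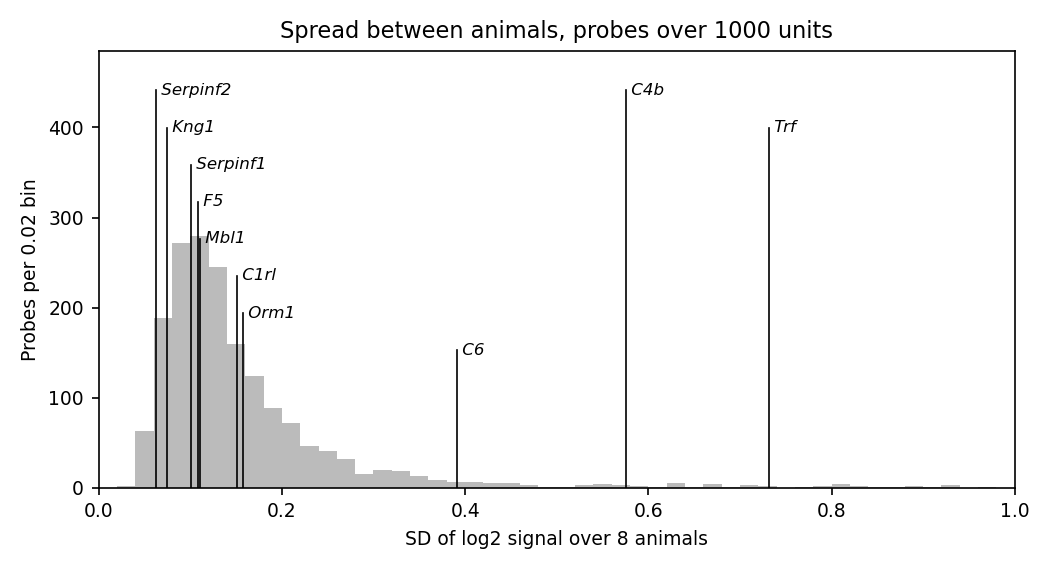
Number of probes by SD of log2 signal over the 8 animals, for the tested probes with a mean above 1000 units (grey; 12 probes with an SD above 1 are not drawn), with the 10 plasma protein probes marked. Trf, C4b and C6 lie in the right tail, and the other 7 lie below 0.2.

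Acute-phase genes were Orm1, Saa1 and Saa2. Orm1, orosomucoid, read 12250, 12672, 13288 and 10002 units in transgenic and 13517, 10346, 11861 and 12252 units in wildtype livers. The groups cover the same range, and the fold change was 1.004 (0.828 to 1.22). Saa1 read 578, 1190, 673 and 533 units in transgenic and 691, 950, 898 and 820 units in wildtype livers. Transgenic animal 2 was the highest of all 8, and the other 3 transgenic animals were the lowest. The fold change was 0.845 (0.562 to 1.27, limma adjusted p = 0.809). The log2 fold change of -0.24 was -0.11 without transgenic animal 4, -0.15 without transgenic animal 1 and -0.49 without transgenic animal 2 (unadjusted p = 0.0106, adjusted p = 0.707 in limma). Saa2 read 85.6, 142, 83.2 and 71.0 units in transgenic and 83.6, 103, 90.4 and 103 units in wildtype livers, again highest in transgenic animal 2. Its fold change was 0.973 (0.694 to 1.37).

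Over the 8 animals Saa1 and Saa2 varied together, and after adjustment the relation passed by Pearson's r only. Pearson's r was 0.91 (exact permutation p = 0.00112) and Spearman's rho 0.90 (exact permutation p = 0.00456). Saa1 was set against 17 other plasma protein probes above the floor in every liver, and adjusted over these the p-values were 0.0190 and 0.0775. Without the 2 animals farthest from the median of Saa1, transgenic 2 and 4, r was 0.76 over 6 animals. The next relations by r were to C1ra (r = 0.82, rho = 0.81, adjusted exact permutation p = 0.0937 and 0.185) and C1qb (r = 0.80, rho = 0.67, adjusted exact permutation p = 0.0937 and 0.353), and neither passed. C1qa, which stood ahead of C1qb by rho, did not pass either (r = 0.67, rho = 0.76, adjusted exact permutation p = 0.281 and 0.208). Without the same 2 animals r was 0.70 for C1ra, 0.53 for C1qb and 0.57 for C1qa. For Orm1 no relation to Saa1 was detectable (r = 0.13, rho = 0.12, adjusted exact permutation p = 0.927 and 0.893), and without the same 2 animals its r was -0.68 over 6 animals. These relations were chosen after the values were seen. Whether the Saa1 probe also binds Saa2 RNA, or those of C4b, Orm1, C1ra, C1s1 and Kng1 their own close relatives C4a, Orm2, C1rb, C1s2 and Kng2, is not known, because probe sequences were not used here. The macrophage marker Csf1r, which is no member, read 40.4, 84.6, 78.0 and 61.1 units in transgenic and 34.7, 83.1, 55.9 and 62.5 units in wildtype livers. Transgenic animal 2 and wildtype animal 2 were nearly level at the top. Of 12 macrophage markers, the C1q genes included, 5 had a tested probe. Summed over these, signal was 542 to 955 units in transgenic and 561 to 962 units in wildtype livers. Wildtype animal 4 had the highest sum (962 units), close to transgenic animal 2 (955 units). C1qa and C1qb, members themselves, made up most of these sums, with 512 and 384 units in wildtype animal 4 and 397 and 447 units in transgenic animal 2. The sums are therefore no separate measure of macrophages. Cd68 exceeded the floor only in transgenic animal 2 (26.9 units) and Lyz2 only in wildtype animal 1 (20.6 units), so the markers did not share 1 highest animal.

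**Figure D5:**
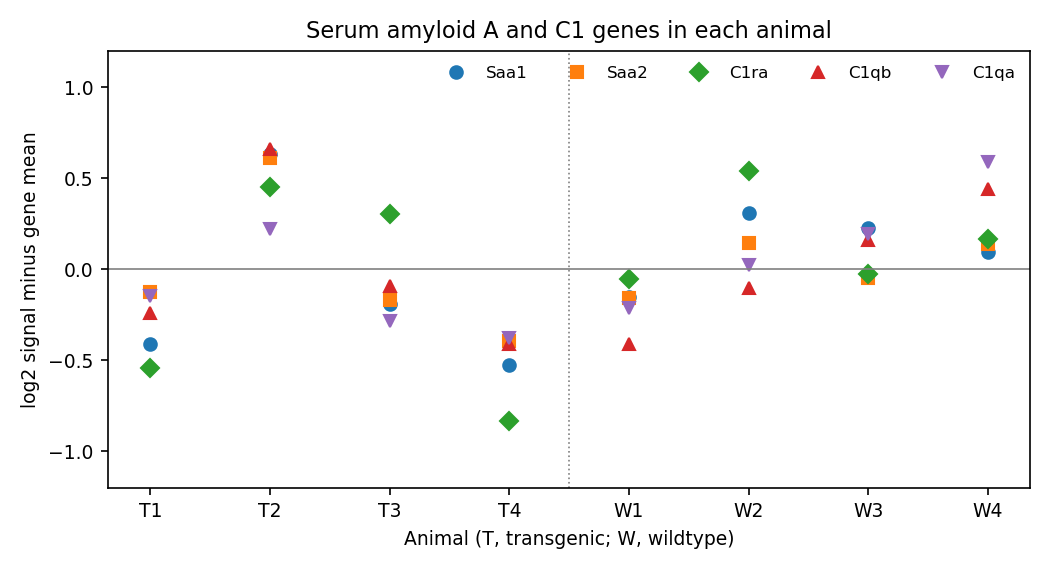
Log2 signal minus the gene's mean over the 8 animals for Saa1, Saa2, C1ra, C1qb and C1qa (T, transgenic; W, wildtype). All 5 genes lie above their mean in transgenic animal 2 and wildtype animal 4. They all lie below it in transgenic animals 1 and 4 and wildtype animal 1.

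None of the genes that match the rule by letters alone passed the test. Ormdl3, a regulator of sphingolipid synthesis in the endoplasmic reticulum, read 2784, 2515, 2543 and 2966 units in transgenic and 3286, 3068, 2931 and 2883 units in wildtype livers. Only transgenic animal 4 reached the wildtype range. Its fold change was 0.887 (0.777 to 1.01), and its unadjusted limma p of 0.0719 was the smallest of all members (0.762 adjusted). C1qtnf5 and C1qtnf9, secreted relatives of C1q, exceeded the floor in 4 and 2 livers.

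Other genes of these pathways were counted in the same comparison, and 0 passed the adjusted threshold. Of 28 further plasma protein genes 7 were tested, 2 higher and 5 lower, with 0 at an unadjusted p under 0.05. Crp, C-reactive protein, which is a minor acute-phase protein in mice, read 10530 to 13466 units in transgenic and 11403 to 12300 units in wildtype livers. Klkb1, plasma prekallikrein, which binds kininogen, had a log2 fold change of -0.09. The smallest p of this list was that of Mst1, with a log2 fold change of 0.16 (unadjusted p = 0.0967, adjusted p = 0.778 in limma). Of 15 clotting and fibrinolysis partners 2 were tested, and Lman1, which carries factors V and VIII out of the endoplasmic reticulum, had a log2 fold change of 0.06. Tfpi, near the floor at no more than 32.8 units, had a log2 fold change of -0.28 (unadjusted p = 0.259, adjusted p = 0.809 in limma). Of 12 complement receptors and membrane regulators 2 were tested. Cd55, which speeds the decay of complement convertases, read 28.2 to 39.0 units in transgenic and 29.2 to 42.7 units in wildtype livers. Of 18 acute-phase signalling genes and hepatocyte transcription factors 6 were tested, 4 higher and 2 lower. Stat3, which relays interleukin-6 signals to acute-phase genes, read 1884, 1814, 1749 and 1485 units in transgenic and 1369, 1554, 1437 and 1412 units in wildtype livers. All but transgenic animal 4 stood above the wildtype range, and the log2 fold change was 0.26 ± 0.09 in limma (SE, unadjusted p = 0.0241, adjusted p = 0.666). These values are from the brightest Stat3 probe. Another Stat3 probe also had a mean above 1000 units, and its group difference is not given here. Cebpb, a C/EBP factor of the same response, read 8849, 6301, 8232 and 4314 units in transgenic and 5474, 6811, 6033 and 6096 units in wildtype livers, so its groups overlapped.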

How the data were processed

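The authors deposited background-subtracted probe intensity values from 1-colour Illumina Mouse_Ref-8 arrays, made with BeadStudio 1.5.1.3 per the submitters' processing notes. Per array 33.1% to 35.3% of values were below 0. Values of 64 further deposited columns could not be tied to a sample and were not used. Intensities under 16 were set to 16 and converted to log2, with no scaling between arrays. The 14759 probes above the floor on at least 1 array were tested with limma 3.58.1 in R 4.3.3 (transgenic minus wildtype, two-sided), with Benjamini-Hochberg adjustment and a threshold of 0.05. Single values were also compared by exact permutation. P-values of the group comparison set the difference between groups against the spread between these animals, and the number of arrays limits precision.

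A gene with several probes is given by its brightest tested one. Members and gene lists were chosen with earlier results of these data known. Plasma protein genes could all be named, with full statistics for those of smallest p or brightest in their list, and up to 4 genes of smallest p of other lists. Apoa1, Csf1r, Cd68, Crp, Klkb1 and per-animal values beyond that rule were added after values were seen. Alternatives changed the floor, background, filter, scaling, variance model and probe choice, or left out an animal. Results on some members are not reported here. Animals are numbered in order of deposition.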

Additional observations from a re-analysis of the deposited data

Results flagged for a closer look

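Within a group of 4, 1 animal stood apart from the other 3 by Dixon's criterion at 9 of 27 member probes, beside 31.2% of all tested probes, so the share is near the background. Chance flags about 1 in 20 groups, and values tied at the floor raise that share, since 1 animal above the floor then stands apart by construction. Among bright probes, C4b stood apart in transgenic animal 3 (2200.3 units), Serpinf2 in wildtype animal 4 (11063.6 units) and Serpinf1 in transgenic animal 1 (23702.2 units). The others given here lie near the floor. In transgenic animal 1 these were F13a1 (16.9 units), a dim C4b probe (25.1 units) and a dim C1s1 probe (18.0 units). The same dim C4b probe stood apart in wildtype animal 2 (28.0 units) and the same C1s1 probe in wildtype animal 4 (27.0 units). A further C1s1 probe did so in wildtype animal 1 (33.2 units). C1qtnf9 stood apart in transgenic animal 3 (18.4 units) and wildtype animal 1 (29.1 units). Causes were not tested.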

How the results depend on the processing

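No member probe passed the adjusted threshold under any alternative run, and 358 of the values for named members kept their direction while 46 turned, at members with group means close to each other or near the floor. A change of filter or variance model cannot alter a log2 fold change, nor can a floor that lies below all values of a probe. Part of the 358 was therefore fixed in advance, and the count is no measure of how firm the directions are. Over all probes the count of calls was 2 with normexp background correction and 1 each with array medians aligned, quantile and cyclic loess scaling, against 0 as reported, and 0 to 7 when 1 animal was left out (7 without transgenic animal 4). Members at an unadjusted p under 0.05 numbered 1 with no filter and 1 with an intensity trend in eBayes (Ormdl3 in both), and 0 to 2 when 1 animal was left out. Members with separate groups then numbered 0 to 1. For these counts and those of gene lists below, the share of all tested probes in the same run is not given. The shares of the main comparison do not stand in for it, so the counts are not read as results. With a floor of 8 the median log2 fold change was 0.24 for clotting factors (0.01 as reported), where 1 of the 2 probes is near the floor. For complement components it lay between -0.26 and -0.13 when 1 animal was left out. Genes at an unadjusted p under 0.05 then numbered 0 to 2 higher and 0 to 1 lower among acute-phase signalling genes, and 0 to 1 in each direction among further plasma protein genes. With medians aligned, quantile and cyclic loess scaling in turn, log2 fold changes turned to 0.026, 0.020 and 0.020 for F5, 0.024, 0.0090 and 0.025 for Kng1, 0.015, 0.037 and 0.014 for Serpinf1 and 0.027, 0.0074 and 0.024 for Serpinf2. Saa2 turned to 0.0074 with quantile scaling. Leaving out 1 animal gave ranges that cross 0 for C1qb (-0.27 to 0.10), C1qtnf5 (-0.25 to 0.028), C1qtnf9 (-0.24 to 0.050), F5 (-0.046 to 0.043), Kng1 (-0.051 to 0.028), Orm1 (-0.063 to 0.092), Saa2 (-0.25 to 0.086), Serpinc1 (-0.056 to 0.33), Serpinf1 (-0.081 to 0.017) and Serpinf2 (-0.019 to 0.044). The cause was not tested. No paired analysis was possible because the labels give the groups no shared animal numbers.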

Other observations

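The high and low level of the bright C4b probe was set beside the genes around it in RefSeq gene order, after the values were seen. Of 22 probes (21 genes) above 16 units in all 8 livers among the 50 protein-coding genes on each side, 3 (13.6%) had the same 3 animals, transgenic 3 and wildtype 1 and 2, as their highest or lowest, beside 3.01% of 8890 such probes on the arrays. Zbtb22 read 892, 893 and 973 units in these 3 animals and 570 to 692 units in the other 5. Notch4 read 242, 227 and 240 units in them and 256 to 305 units in the others. H2-D1, a class I histocompatibility gene, read 59.7, 40.3 and 48.4 units in them and 81.5 to 110 units in the others. In gene order from C4b, Zbtb22 stands at position -45, Notch4 at -12 and H2-D1 at 45. The 3 animals were highest at Zbtb22 and lowest at Notch4 and H2-D1. At the nearest probes, of Tnxb (-1), Ppt2 (-5), Nelfe (5) and Neu1 (11), these animals were neither the 3 highest nor the 3 lowest. No test was made of this split, since the animals were picked by their C4b level.

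Markers of other cells were counted in the same fit. Of the erythroid markers 2 were tested and both had a lower mean in transgenic livers at an unadjusted p under 0.05 in limma, and of 4 tested endothelial markers all 4 were lower, 1 of them (Emcn) at that level. Of 4 tested stellate cell markers 3 were lower, 1 of them at that level, and this one, Lrat, had the smallest p of all markers (log2 fold change -0.46, unadjusted p = 0.00767, adjusted p = 0.592 in limma). The 2 tested neutrophil markers and the 1 lymphocyte marker were not at that level. Of all tested probes 3.59% were lower at that level, and 0 marker passed the adjusted threshold. The part of these cells in the plasma protein values was not tested.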
